A study of Homo sapiens with 9 samples.

Results

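RBE is an established human line of intrahepatic cholangiocarcinoma, which arises from bile duct cells within the liver, and the comparison described here sets RBE cells carrying a short hairpin RNA against IDH1 (shIDH1) against RBE cells carrying a scramble hairpin (control). The libraries were chosen by their labels, 3 of shIDH1 and 3 of control, so 6 of the 9 libraries of the series. The other 3 carry a hairpin against JOSD2 (shJOSD2), a Josephin-domain deubiquitinase gene. All groups, the controls included, were infected with lentivirus, and the title of the series calls the line's IDH1 mutant and names JOSD2 and the coactivators YAP and TAZ. The labels name 1 cell line and 1 hairpin name per gene, give no time after infection, and leave unsaid whether replicates were infected apart. The p-values therefore rest on the spread among these libraries alone, which may be technical.

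IDH1 encodes the cytosolic and peroxisomal isocitrate dehydrogenase, which turns isocitrate into 2-oxoglutarate and reduces NADP. Mutant forms found in bile duct cancers instead reduce 2-oxoglutarate to 2-hydroxyglutarate, a metabolite that inhibits dioxygenases, among them TET DNA demethylases and histone demethylases. The hairpin lowers the transcript and cannot separate the normal function of the enzyme from that of the mutant form.

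Poly(A) RNA was sequenced, and each of 36225 genes has a deposited count and an FPKM value (fragments per kilobase of transcript, scaled to the mapped fragments of a library) in each library. The 6 libraries held 68109553 to 71612713 deposited counts. Biliary markers were abundant: 11 of 12 reached 1 FPKM in each group, and their summed level was 1713 to 1971 FPKM in control and 2166 to 2188 in shIDH1. KRT19, a keratin of bile duct cells, stood at 599, 585 and 497 FPKM in control and 528, 511 and 532 in shIDH1. Of the 12 biliary markers 7 were called higher and 2 lower, with a median log2 change of 0.30, against 24.5% and 25.6% of all tested genes. All 7 endothelial markers stayed under 1 FPKM in these 6 libraries. The 13 leukocyte markers summed to 33.5 to 65.3 FPKM in control and 28.3 to 32.5 in shIDH1, with 1 of 12 tested called higher and 1 lower. The 8 fibroblast markers summed to 14.9 to 17.7 FPKM in control and 35.5 to 37.2 in shIDH1, most of it ACTA2. Of the 6 tested, 4 were called higher and 0 lower, with a median log2 change of 1.83. In shIDH1 4 of the 8 stayed under 1 FPKM, and the collagen genes COL1A2 and COL3A1 reached at most 0.119 and 0.030 FPKM on average.

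Control replicate 1 differed from the other 2 controls. In 49 genes it was at least 4-fold lower than both of them, while each of the other 8 libraries of the series was that much lower than its 2 partners in 12 to 22 genes. These are in part genes of liver secretory cells. APOA1, whose product forms high-density lipoprotein, stood at 2.91, 40.05 and 45.5 FPKM in the 3 controls. It stood at 2.51, 3.19 and 3.25 in shIDH1 and at 3.68, 6.24 and 3.04 in shJOSD2. For this gene control replicates 2 and 3 were thus the high libraries of the series. GSTP1 and CLDN6, also among the 49, differed between shIDH1 and shJOSD2 by -0.06 and -0.32 on the log2 scale, neither called. Which controls are typical of the line was not tested. Summed hepatocyte markers were 52.8 to 122.8 FPKM in control and 140.6 to 151.5 in shIDH1, but the 20 markers did not move together: 5 rose, FGB and FGA among them, and 8 fell, with a median log2 change of -1.04. Against control replicate 1 alone 7 of the 20 rose and 0 fell, with a median of 0.90. Of the 49 genes 31 were called lower in shIDH1, against 25.6% of all tested genes. The 49 were picked for a low value in control replicate 1, so smaller falls against that control alone follow from the choice. The part of control replicate 1 in other results was not tested. The genes, gene lists and gene families, but not the annotation terms, promoter motifs or transcript classes, were also computed against control replicate 1 alone, which called 34.8% of 24341 tested genes. A value is given where that changed a call. A lost call need not mean a smaller change, since a single control makes the test weaker.

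**Figure D1:**
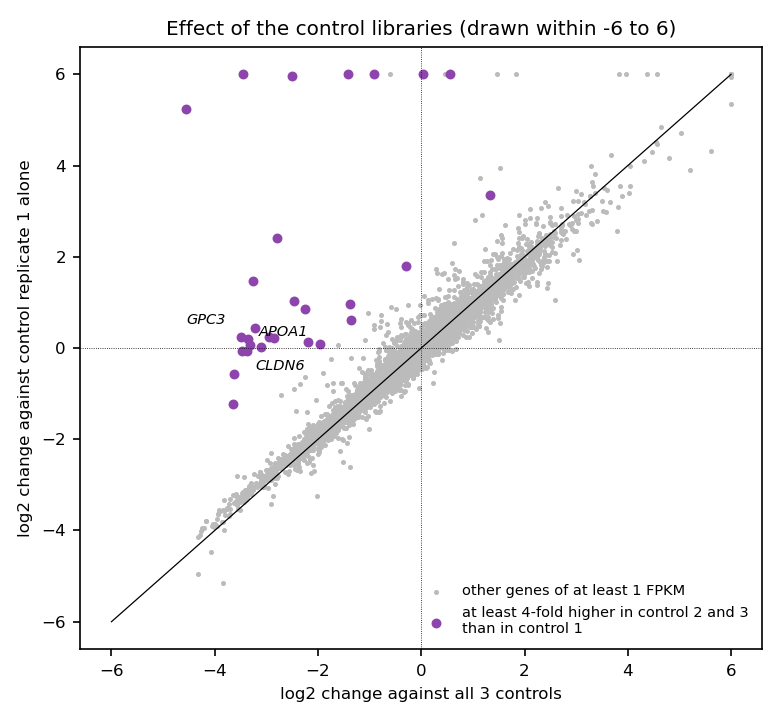
Fitted log2 change of each gene with a mean of at least 1 FPKM in control or shIDH1, against all 3 controls (x axis) and against control replicate 1 alone (y axis). The 45-degree line marks equal values. Purple points are genes at least 4-fold higher in control replicates 2 and 3 than in replicate 1. They lie above the line, as that choice entails, with APOA1 at -3.31 and 0.076, while most other genes lie along it.

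IDH1 itself (on the minus strand of GRCh38 chromosome 2, from 208236229 to 208266074, ENSG00000138413) stood at 45.6, 38.9 and 47.4 FPKM in control and 12.4, 13.1 and 12.3 in shIDH1. The groups did not overlap, and the level in shIDH1 was 3.48-fold lower. An exact two-sided permutation test of these FPKM values gave p = 0.1, the smallest that 3 against 3 libraries allow. IDH2, which encodes the mitochondrial isocitrate dehydrogenase, stood at 30.2, 34.5 and 31.8 in control and 31.8, 31.4 and 30.1 in shIDH1, ranges that overlap, with a log2 change of -0.05 (95% interval -0.21 to 0.11). YAP1 and WWTR1, the genes of YAP and TAZ, had log2 changes of 0.09 ± 0.08 and 0.01 ± 0.09 (SE), neither called.

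The comparison asks which transcripts differ once IDH1 is depleted. Many did: 50.1% of 21492 tested genes were called, 24.5% higher and 25.6% lower. A gene is called here where edgeR's quasi-likelihood test gave a Benjamini-Hochberg adjusted p under 0.05 over all tested genes, and changes are log2 differences of shIDH1 from control. Smaller shares passed with a fold limit: 9.77% of tested genes were called and at least 2-fold higher, and 9.4% were called and at least 2-fold lower. A test against a 2-fold limit itself left 932 genes higher and 1057 lower. In 56.9% of tested genes the 2 sets of FPKM values were fully separate, so a gene with separate ranges is common here. The median change over all tested genes was 0.01, and 842 genes had a 95% interval wholly between -0.25 and 0.25. Upper-quartile scaling moved the median of all genes to 0.12, so each change below is relative to that choice.

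**Figure D2:**
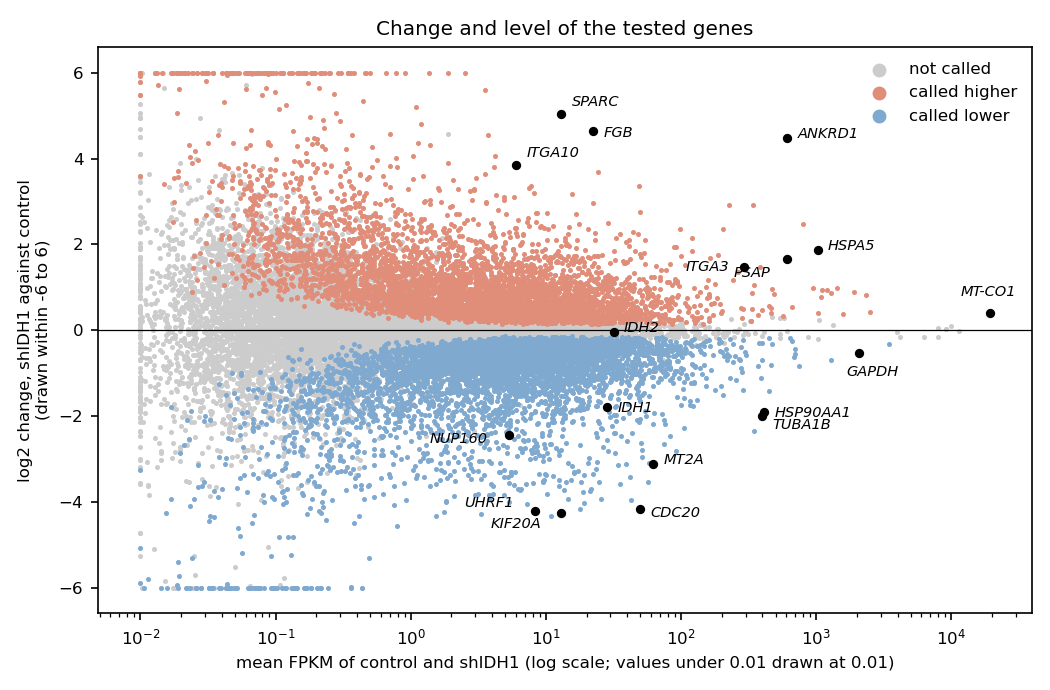
Fitted log2 change of shIDH1 against control (y axis) by mean FPKM of both groups (x axis, log scale) for the 21492 tested genes, coloured by call. Named genes are in black: SPARC at 5.03 and ANKRD1 at 4.48 lie among the rises, and CDC20 at -4.16 among the falls.

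The 10 largest falls among well-measured genes included 5 with a role in mitosis, CDC20, PLK1, CCNB1, KIF20A and AURKB, and the promoters of 7 of the 10 are printed below. Well-measured means called, with a mean of at least 10 FPKM in the higher group, a count in each of the 6 libraries and separate FPKM ranges, which 1476 higher and 2038 lower genes met. CDC20, the mitotic activator of the anaphase-promoting complex, stood at 75.2, 102 and 105 FPKM in control and 6.12, 4.95 and 4.72 in shIDH1. PLK1, a mitotic kinase, stood at 23, 30.2 and 29.4 in control and 2.25, 1.5 and 1.65 in shIDH1. Every shIDH1 library was far below the lowest control for both genes. CCNB1, the cyclin that starts mitosis, was 15.4-fold lower, the spindle kinesin KIF20A 19.3-fold, GTSE1, a G2 and S phase protein that binds microtubules, 16.6-fold and the histone chaperone ASF1B 16.3-fold. UHRF1, which brings the maintenance DNA methyltransferase to replicated DNA, stood at 13.5, 15.5 and 18.7 FPKM in control and 1.29, 0.48 and 0.803 in shIDH1. H2AX, a histone variant phosphorylated at DNA breaks, fell 15.2-fold and AURKB, a kinase of the chromosomal passenger complex, 17.9-fold. The tenth gene, AL662797, an unnamed locus, was uneven between controls at 32.8, 7.61 and 21.9 FPKM. In bulk RNA, fewer cells of a kind and less RNA per cell cannot be told apart.

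The promoters were searched for CCAAT, bound by the activator NF-Y, and TTTGAA, the cell cycle homology region bound by the DREAM and MuvB complexes. Of the 9 of these 10 genes with a promoter in the table, 8 hold CCAAT and 4 TTTGAA in the last 120 bases before the RefSeq start site, on either strand. AURKB holds neither there. The share of all tested genes with a match in those 120 bases was not computed, so whether 8 and 4 of 9 are unusual was not tested. Over a longer stretch, described further below, CCAAT stood in 36% and TTTGAA in 10.5% of the promoters of all tested genes. Those shares cannot be set against counts over 120 bases. The last 120 bases are printed 5′ to 3′ in the direction of the gene for 7 of the 9 genes, with the matches in capitals.
CDC20 (GRCh38.p14, chr1:43358861-43358980, plus strand): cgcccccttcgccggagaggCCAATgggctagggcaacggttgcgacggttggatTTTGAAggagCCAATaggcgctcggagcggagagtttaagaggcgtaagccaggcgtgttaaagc
PLK1 (GRCh38.p14, chr16:23678769-23678888, plus strand): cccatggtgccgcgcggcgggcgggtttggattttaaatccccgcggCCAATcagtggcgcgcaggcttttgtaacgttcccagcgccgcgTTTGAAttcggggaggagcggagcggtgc
ASF1B (GRCh38.p14, chr19:14136590-14136709, minus strand): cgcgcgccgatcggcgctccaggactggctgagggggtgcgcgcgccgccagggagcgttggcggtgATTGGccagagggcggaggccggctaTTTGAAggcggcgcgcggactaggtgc
GTSE1 (GRCh38.p14, chr22:46296750-46296869, plus strand): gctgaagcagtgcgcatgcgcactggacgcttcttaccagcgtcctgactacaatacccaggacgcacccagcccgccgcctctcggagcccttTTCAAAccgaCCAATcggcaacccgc
KIF20A (GRCh38.p14, chr5:138178992-138179111, plus strand): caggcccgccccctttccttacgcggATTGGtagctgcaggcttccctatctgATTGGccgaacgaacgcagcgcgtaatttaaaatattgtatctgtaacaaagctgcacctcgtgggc
CCNB1 (GRCh38.p14, chr5:69167030-69167149, plus strand): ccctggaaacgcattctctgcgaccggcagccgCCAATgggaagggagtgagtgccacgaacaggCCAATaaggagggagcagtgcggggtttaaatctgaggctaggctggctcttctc
In CDC20 the TTTGAA match begins 65 bases before the start and lies between CCAAT matches at 100 and 55. In PLK1, ASF1B and GTSE1 it begins 29, 27 and 26 bases before the start. No TTTGAA stands in the stretches of KIF20A and CCNB1, each of which holds a pair of CCAAT matches. The promoter of UHRF1 holds a CCAAT match that begins 86 bases before the start and a match to an E2F site (TTTCCCGC, here on the minus strand) that begins 14 bases before it, both in capitals.
UHRF1 (GRCh38.p14, chr19:4909381-4909500, plus strand): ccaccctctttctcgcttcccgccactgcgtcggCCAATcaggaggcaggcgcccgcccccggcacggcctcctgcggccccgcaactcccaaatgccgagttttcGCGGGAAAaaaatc

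The 10 largest rises among well-measured genes were of mixed kinds. SPARC, a matricellular glycoprotein that binds collagen, stood at 0.98, 0.612 and 0.707 FPKM in control and 23, 25.7 and 27.1 in shIDH1. ITGA10, an integrin chain of collagen receptors, stood at 0.979, 0.628 and 0.74 in control and 11.7, 11.1 and 11.2 in shIDH1. Both went from about 1 FPKM or less to over 10, with no overlap. FGA and FGB, which encode fibrinogen chains, rose 10.3-fold and 25-fold. VTCN1, a B7-family inhibitor of T cells, rose 9.19-fold, the actin-regulating gene LURAP1L 9.01-fold and the long non-coding RNA LINC02709 9.93-fold. HMOX1, the heme oxygenase induced by oxidative stress, stood at 2.46, 4.38 and 3.75 FPKM in control and 22.3, 50.1 and 63.6 in shIDH1, so shIDH1 replicate 1 was the lowest of its group. DDIT3, a transcription factor of the stress response also known as CHOP, had its lowest value in the same library, 67.9, 95.2 and 103 in shIDH1 against 8.57, 7.04 and 10.3 in control.

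ANKRD1, a nuclear ankyrin-repeat protein, and CCN2, a secreted matricellular factor, are classic targets of YAP and TAZ, which bind DNA through TEAD factors, and both rose. No list of such targets was examined, so these 2 genes do not stand for all of them. ANKRD1 stood at 60.5, 49.6 and 47.1 FPKM in control and 1125, 1162 and 1209.6 in shIDH1. CCN2 stood at 62.3, 45.4 and 51.4 FPKM in control and 421, 413 and 359 in shIDH1. No library of either gene overlapped between groups, and the rises were 22.3-fold and 7.5-fold. JOSD2 was at 6.66, 6.31 and 6.15 FPKM in control and 1.51, 1.85 and 1.7 in shIDH1, 3.73-fold lower. The 250 bases before the start of both targets are printed 5′ to 3′, with matches to the TEAD site CATTCC on either strand in capitals. They show GGAATG, its reverse complement, 220 and 128 bases before the start of ANKRD1 and 169, 104 and 95 bases before that of CCN2.
ANKRD1 (GRCh38.p14, chr10:90921088-90921337, minus strand): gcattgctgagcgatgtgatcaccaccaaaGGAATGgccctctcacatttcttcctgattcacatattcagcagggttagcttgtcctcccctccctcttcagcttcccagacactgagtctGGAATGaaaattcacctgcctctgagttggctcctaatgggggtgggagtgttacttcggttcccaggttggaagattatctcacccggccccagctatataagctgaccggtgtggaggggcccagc
CCN2 (GRCh38.p14, chr6:131951373-131951622, minus strand): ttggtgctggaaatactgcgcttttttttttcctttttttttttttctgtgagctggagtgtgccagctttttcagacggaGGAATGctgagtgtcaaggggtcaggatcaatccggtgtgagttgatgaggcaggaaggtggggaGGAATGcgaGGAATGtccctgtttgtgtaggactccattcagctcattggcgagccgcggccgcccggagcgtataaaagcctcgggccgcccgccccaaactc

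Measured by gain in FPKM rather than fold, the largest changes were in abundant transcripts. HSPA5, the ER chaperone BiP, stood at 454, 424 and 437 FPKM in control and 1020.0, 2027 and 1773 in shIDH1, again with replicate 1 lowest among the shIDH1 libraries. Its promoter holds the ER stress element, CCAAT and CCACG with 9 bases between them, which begins 66 bases before the start and is in capitals in the last 120 bases.
HSPA5 (GRCh38.p14, chr9:125241344-125241463, minus strand): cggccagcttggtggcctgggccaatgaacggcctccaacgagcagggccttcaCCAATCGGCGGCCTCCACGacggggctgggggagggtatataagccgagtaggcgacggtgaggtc
The element is rare, in 0.105% of the promoters of tested genes. It was no more common among genes called and at least 2-fold higher, in 1 of 1260 promoters (0.0794%). The translation elongation factor EEF1A1 rose 1.34-fold and, of the mitochondrial genome, MT-CO1 1.32-fold, MT-RNR1 1.86-fold and MT-ND5 1.77-fold. MT-ND6, MT-TN and MT-TY are read from the opposite strand to their neighbours, so with the strand setting of the counting not given in the sources used here their rises of 0.94, 0.99 and 0.86 on the log2 scale are uncertain.

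The 10 largest losses in FPKM were those of MT-ND2, of 5 tubulin and actin genes, and of GAPDH, HSP90AA1, TMSB10 and LGALS1. TUBA1B, an alpha-tubulin, stood at 549, 680.4 and 662 FPKM in control and 172, 147 and 152 in shIDH1. HSP90AA1, the inducible cytosolic HSP90, stood at 664, 713 and 580.3 FPKM in control and 195, 163 and 163 in shIDH1. Neither pair of ranges overlapped. The beta-tubulins TUBB4B and TUBB fell by 2.36 and 1.12 on the log2 scale, the actins ACTB and ACTG1 by 0.84 and 0.70, the actin-sequestering peptide gene TMSB10 by 0.62 and the galectin LGALS1 by 1.41. GAPDH, the glycolytic enzyme used as a loading control, fell by 0.54 ± 0.09 (SE). Tubulins and actins have near-identical copies, so reads may be split between them. MT-ND2, with the largest loss, fell by 0.32 on the log2 scale, which was not called against control replicate 1 alone (log2 change -0.10, adjusted p = 0.477). The most abundant genes with a 95% interval within -0.25 to 0.25 were MT-CO3, MT-RNR2, MT-CO2, MT-ND4L and MT-ND4, with changes of -0.01, 0.10, 0.04, 0.02 and 0.05.

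**Figure D3:**
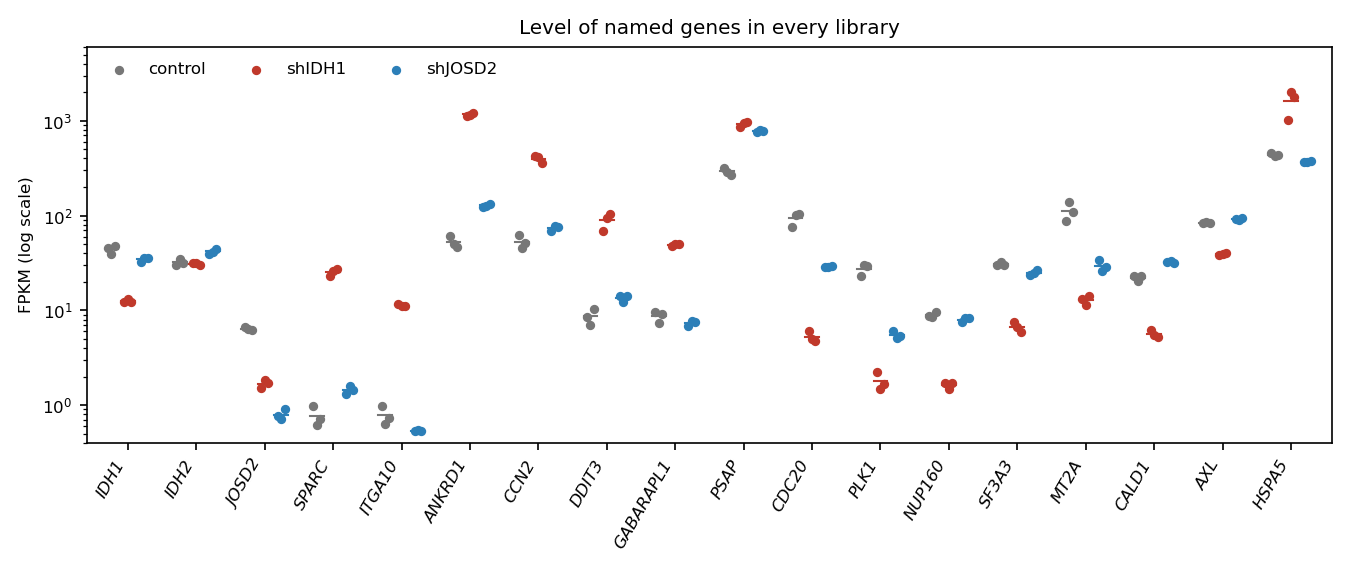
FPKM (log axis) of 18 named genes in every library of control (grey), shIDH1 (red) and shJOSD2 (blue). Points are libraries and short lines group means. SPARC, ITGA10 and ANKRD1 in shIDH1 stand above both other groups, as do HSPA5 and GABARAPL1, and CDC20, PLK1 and NUP160 stand below.

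Gene lists by function are described next, each by how many tested members were called in each direction and by the median change, against 24.5% higher, 25.6% lower and a median of 0.01 over all tested genes. Of 32 tested cyclins, their kinases and inhibitors, and E2F and related factors, 23 fell and 5 rose, with a median of -1.27. E2F8, a repressor of S phase genes, stood at 2.77, 2.89 and 4.36 FPKM in control and 0.243, 0.0945 and 0.183 in shIDH1, and FOXM1, the activator of mitotic genes, at 31.5, 42.7 and 46.6 and 3.83, 2.73 and 2.75. CDKN1B, which encodes the kinase inhibitor p27, rose from 19.7, 16.2 and 19.1 FPKM to 45, 43.8 and 38.6. E2F5 and E2F6, E2F factors that mainly repress, rose by 0.66 and 0.73 on the log2 scale. CCND1, the cyclin D1 gene, was not called at -0.11 ± 0.07 (SE).

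Homologous recombination repairs DNA breaks from a sister copy, and the Fanconi genes serve crosslink repair. Of 38 tested genes of both, 32 fell and 2 rose, with a median of -1.51. EXO1, a nuclease that trims DNA ends, stood at 7.62, 9.14 and 10.02 FPKM in control and 1.23, 0.711 and 0.546 in shIDH1. RAD54L, a motor protein of strand exchange, fell 10.4-fold and the helicase gene BLM 10.8-fold. The rises were RAD50, a subunit of the complex that binds DNA ends, by 0.45 and RAD52, a strand-annealing protein, by 0.33 on the log2 scale. RAD52 was not called against control replicate 1 alone (log2 change 0.20, adjusted p = 0.244).

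Enzymes that make DNA precursors fell too. Of 30 tested enzymes of purine and pyrimidine synthesis 25 fell and 2 rose, with a median of -1.07. TK1, the thymidine kinase of S phase, stood at 89.3, 112 and 114 FPKM in control and 10.9, 8.25 and 8.16 in shIDH1, and RRM2, the S phase subunit of ribonucleotide reductase, at 10.2, 11.9 and 17.1 and 1.46, 0.867 and 0.887. Its p53-induced counterpart RRM2B rose 1.72-fold, from 22.4, 16.6 and 20.01 to 34.2, 34.8 and 32.1. Of 24 genes of serine, glycine and folate metabolism 12 fell and 3 rose. SHMT1, the cytosolic serine hydroxymethyltransferase, fell 4.67-fold and TYMS, the thymidylate synthase, 4.94-fold, while CTH, which makes cysteine from cystathionine, rose 3.87-fold. The median of this list was -0.44, and -0.03 against control replicate 1 alone.

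Genes of DNA methylation and Polycomb repression, the marks that TET enzymes and 2-hydroxyglutarate bear on, fell more often than they rose. Of 30 tested, 18 fell and 8 rose, with a median of -0.55. The share that rose, 26.7%, was near that of all tested genes. Called changes of at least 2-fold were 9 falls and 0 rises. UHRF1 led the falls, CBX2, a Polycomb reader, fell 5.51-fold, and EZH2, the Polycomb methyltransferase, stood at 11.6, 12 and 13.5 FPKM in control and 3.22, 2.96 and 2.8 in shIDH1. The Polycomb genes JARID2 and CBX7 rose by 0.61 and 0.43 on the log2 scale. Against control replicate 1 alone CBX7 had a log2 change of 0.43 but was not called. TET2 and TET3, which oxidise methylcytosine, rose by 0.59 and 0.20, TET3 without a call against that control (adjusted p = 0.077), and TET1 was not called at 0.28 ± 0.20. These 4 genes, EZH2 and the TET genes, were picked for the biology of the enzyme after their values were seen.

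The machinery that carries and matures RNA fell widely. Of 31 tested nuclear pore and transport genes 29 fell and 0 rose, with a median of -0.91. NUP160, a scaffold nucleoporin, stood at 8.67, 8.49 and 9.69 FPKM in control and 1.72, 1.49 and 1.71 in shIDH1. NUP188, of the inner ring, fell 4.14-fold and RANBP1, which helps RAN hydrolyse GTP, 3.51-fold. Of 32 ribosome biogenesis factors 29 fell and 0 rose, with a median of -0.79. NAT10, an RNA acetyltransferase of the nucleolus, fell 3.15-fold, UBTF, which activates RNA polymerase I, 2.67-fold and the methyltransferase FBL 2.47-fold. Of 33 spliceosome and SR protein genes 27 fell and 2 rose, with a median of -0.88. SF3A3, a U2 particle subunit, stood at 30.05, 32.3 and 29.8 FPKM in control and 7.6, 6.66 and 5.87 in shIDH1, SNRPF, an Sm core protein, fell 3.31-fold and the SR protein SRSF2 2.84-fold. The rises were SRSF9 by 0.16 and CLK1, a kinase of SR proteins, by 0.58 on the log2 scale. Against control replicate 1 alone SRSF9 had a log2 change of 0.21 but was not called. Of 20 aminoacyl-tRNA synthetases 11 fell and 2 rose, the seryl and glycyl enzymes SARS1 and GARS1, by 0.71 and 0.42, and the histidyl enzyme HARS1 fell most, by 0.97.

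The extracellular matrix list had the highest median of the 30 lists. Of 36 tested collagens, laminins and matrix glycoproteins 27 rose and 6 fell, with a median of 0.96. Beside SPARC, the basement membrane collagen COL4A1 stood at 13.7, 11.8 and 11.5 FPKM in control and 59.7, 58.8 and 58 in shIDH1, and COL18A1, the source of endostatin, at 42.7, 35.6 and 36.5 and 145, 147 and 146. The laminin chains LAMB1, LAMB2 and LAMA5 and the heparan sulfate proteoglycan HSPG2, parts of the same membranes, rose by 1.13, 1.29, 1.07 and 1.54 on the log2 scale. The falls included the transmembrane collagens COL17A1 and COL13A1, by 1.12 and 0.93, and fibronectin, FN1, by 0.75. Summed fibroblast markers, given above, moved with this list, and their part was not tested. The laminin genes and HSPG2 were named after their values were seen.

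Integrins are the receptors of this matrix. Of 20 tested chains 12 rose and 3 fell, with a median of 0.60. The abundant ITGA3, a laminin receptor chain, stood at 171, 149.9 and 145 FPKM in control and 412, 431 and 454 in shIDH1, and its partner ITGB1 at 377, 335 and 341 and 669, 621 and 589. Neither overlapped between groups. ITGA1 and ITGA7, collagen and laminin receptor chains, rose 4.18-fold and 3.08-fold. ITGB4 and ITGB5 were not called, at -0.08 and -0.06, and ITGB2, the leukocyte integrin chain, fell by 0.20, which was not called against control replicate 1 alone (adjusted p = 0.257). The other falls called were of ITGAE and ITGA4, by 1.11 and 1.04, from means of 0.996 and 0.346 FPKM. ITGAE, ITGA4, ITGA3, ITGB1, ITGB4 and ITGB5 were chosen after their values were seen, the last 4 as abundant chains.

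Of 25 tested proteases and inhibitors that act on the matrix 17 rose and 4 fell, with a median of 0.80. MMP7, matrilysin, stood at 51.8, 42.2 and 32.6 FPKM in control and 127, 126 and 116 in shIDH1. RECK, a membrane inhibitor of metalloproteinases, rose 5.37-fold, and the secreted inhibitors TIMP2 and TIMP1 fell by 0.77 and 0.32 on the log2 scale, TIMP1 without a call against control replicate 1 alone (adjusted p = 0.699). Of 32 complement and coagulation genes 21 rose and 6 fell, with a median of 0.59. The falls included CFD, complement factor D, by 1.27 and the protease inhibitor TFPI2 by 0.53, the latter not called against control replicate 1 alone (adjusted p = 0.0902). FGA and FGB are also hepatocyte markers, and their rises were as large against that control, 3.81 and 4.84 on the log2 scale.

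Of 37 tested growth factor genes 20 rose and 9 fell, with a median of 0.39. GDF15, a stress-induced cytokine, stood at 92.2, 70.7 and 76 FPKM in control and 507, 636 and 671 in shIDH1, and INHBE, an activin chain made in the liver, at 0.506, 0.292 and 0.636 and 3.34, 6.47 and 7.02. INHBB, another activin chain, fell from 54.3, 55.3 and 60.9 FPKM to 23, 19.5 and 19, and the lymphatic growth factor VEGFC fell 2.38-fold. IGF2, the fetal growth factor, stood at 3.06, 8.68 and 11 FPKM in the 3 controls and 2.13, 1.62 and 2.37 in shIDH1, and was not called against control replicate 1 alone (log2 change -0.55, adjusted p = 0.164). Of 22 chemokines and interleukins 6 rose and 4 fell, near the share of all tested genes for rises, with a median of 0.04. The membrane-bound chemokine CX3CL1 stood at 9.57, 6.46 and 7.98 FPKM in control and 33.7, 41 and 40.5 in shIDH1, and TNFSF15, a TNF family ligand, rose 5.14-fold, while the chemokines CXCL1 and CCL2 fell 3.05-fold and 2.53-fold from low levels. Of 28 factors known from the secretions of senescent cells, a list that shares GDF15 and CXCL1 with those above, 12 rose and 9 fell, with IGFBP4, a binding protein of insulin-like growth factors, down by 0.83.

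Receptor tyrosine kinases were split, with 11 of 28 tested higher and 10 lower. AXL, the receptor of GAS6, stood at 83.1, 84.8 and 83.4 FPKM in control and 38.7, 39.5 and 40.5 in shIDH1, a fall in every library with a narrow spread. MET, the receptor of hepatocyte growth factor, fell 1.92-fold, from 86.5, 77.9 and 88.1 to 49.8, 43 and 39.1, and TYRO3, of the AXL family, 1.69-fold. DDR1, a collagen receptor kinase, rose 2.38-fold, from 27.4, 23 and 22.2 FPKM to 56.5, 56.3 and 59.96, ROR1, a receptor of Wnt5a, 2.84-fold and PDGFRB, also a fibroblast marker, 4.97-fold to a mean of 2.2 FPKM. Phosphatase genes of the DUSP family, sprouty genes and related genes, only some of them feedback genes of ERK signalling, gave 12 rises and 6 falls among 21. Their median was 0.51. The phosphatase gene DUSP1 stood at 23.4, 19.1 and 24.5 FPKM in control and 80.8, 79.6 and 68.9 in shIDH1, and DUSP10 and SPRY1 rose 3.3-fold and 3.42-fold. DUSP7 and the transcription factors ETV5 and ETV4 fell by 0.87, 0.69 and 0.64 on the log2 scale. Of 34 Wnt pathway genes 8 rose and 14 fell, with the ligand gene WNT7B 2.19-fold lower, the receptor FZD5 2.09-fold higher and the secreted DKK3 3.19-fold higher.

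Epithelial junctions and the cytoskeleton changed in part. Of 32 claudin, junction and cadherin genes 16 rose and 10 fell, with a median of 0.26. CDH17, the liver-intestine cadherin, stood at 2.32, 1.74 and 2.62 FPKM in control and 15.8, 13.7 and 14.7 in shIDH1. CDH6 and the connexin GJA1 rose 3.31-fold and 2.8-fold, and the tight junction gene F11R fell 2.74-fold. CLDN6, a fetal claudin, was uneven between controls at 0.209, 2.96 and 2.96 FPKM and was not called against control replicate 1 alone (adjusted p = 0.969). Of 27 contractile and actin-binding genes 14 fell and 7 rose. CALD1, caldesmon, stood at 23.3, 20.5 and 22.8 FPKM in control and 6.28, 5.53 and 5.2 in shIDH1, and the non-muscle myosins MYH9 and MYH10 fell 2.85-fold and 2.5-fold, while tropomyosin TPM1 rose 2.2-fold and the smooth muscle actin ACTA2 2.13-fold. Of 20 intermediate filament genes 8 fell and 3 rose. Among called members of at least 2 FPKM the nuclear lamins fell most, LMNB1 from 20.8, 24.4 and 30.3 FPKM in control to 2.57, 1.38 and 1.75 in shIDH1 and LMNB2 4.72-fold, whereas the simple epithelial keratins KRT8 and KRT18 rose by 0.56 and 0.39 on the log2 scale. Among 18 mucins, trefoil factors and secreted epithelial genes, 4 rose and 7 fell: MUC13 fell 3.62-fold and CEACAM1 rose 5.2-fold.

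**Figure D4:**
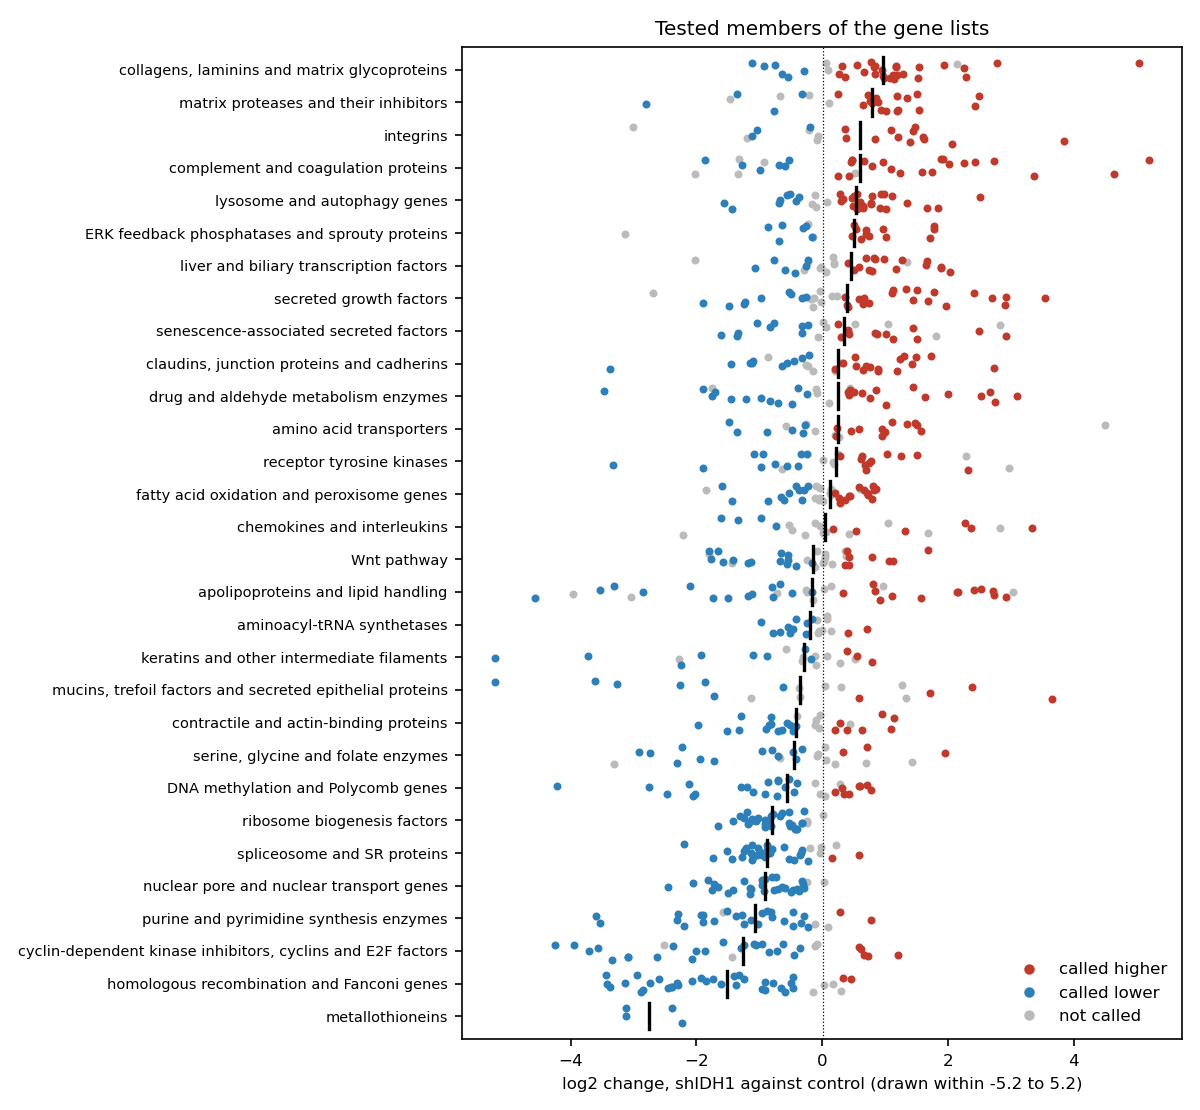
Log2 change of every tested member of 30 gene lists (x axis), 1 row per list, ordered by the median, with red for members called higher, blue for those called lower and grey for the rest. Thick bars are list medians and the dotted line the median of all tested genes, 0.01. The matrix list has a median of 0.96 at the top, and nuclear pore genes lie at -0.91 with no red point.

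Liver and biliary transcription factors rose more often than they fell, 16 against 6 of 32 tested, with a median of 0.46. PPARA, the receptor that drives fatty acid oxidation, stood at 0.928, 0.709 and 0.744 FPKM in control and 3.08, 3.57 and 3.08 in shIDH1. PPARGC1A, a coactivator of mitochondrial genes, rose 3.71-fold and HNF4G, a relative of the hepatocyte factor HNF4A, 3.69-fold. NR0B2, a repressor of bile acid synthesis, fell by 1.07 on the log2 scale and NR5A2, its partner, by 0.59, neither called against control replicate 1 alone (adjusted p = 0.0871 and 0.0511), and GATA4 fell by 0.77. SOX9, the biliary factor, was not called at 0.18 ± 0.10 (SE).

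Lysosome and autophagy genes, through which cells degrade their own contents, rose in 26 of 38 cases and fell in 8, with a median of 0.53. GABARAPL1, which tethers cargo to autophagosomes, stood at 9.5, 7.41 and 9.13 FPKM in control and 47.9, 49.6 and 50.2 in shIDH1. PSAP, the precursor of the saposins, stood at 317, 291 and 271 FPKM in control and 863, 958 and 971 in shIDH1. Neither gene overlapped between groups. WIPI1, an autophagosome protein, rose 3.6-fold. The falls included ATG9A, an autophagy lipid scramblase, 2.96-fold, the lysosomal membrane protein LAMP1, 2.69-fold, and ATG7, 1.62-fold.

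Amino acid transporters gave 12 rises and 6 falls among 24. SLC7A11, the cystine importer, stood at 3.2, 2.43 and 4.6 FPKM in control and 7.75, 10.5 and 10.6 in shIDH1, SLC7A7 rose 2.97-fold and the glutamate transporter SLC1A1 2.8-fold. SLC7A1, SLC1A4 and SLC36A4 fell by 0.31, 0.48 and 0.27 on the log2 scale. Against control replicate 1 alone their log2 changes were -0.17, -0.36 and -0.29, none of them called. Fatty acid oxidation and peroxisome genes were split, 14 higher and 11 lower of 38, with EHHADH, a peroxisomal enzyme, 1.81-fold higher and ECHS1, a mitochondrial hydratase, 1.81-fold lower. Apolipoprotein and lipid-handling genes were too, 13 higher and 14 lower of 37. Their median of -0.17 was 0.30 against control replicate 1 alone. ABCA1, the cholesterol exporter, stood at 2.36, 1.84 and 2.56 FPKM in control and 13.4, 15.6 and 15.9 in shIDH1, the hepatic lipase LIPC rose 4.4-fold, and PNPLA3, a lipid droplet protein, fell 2.82-fold.

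Detoxifying enzymes changed in both directions, 15 higher and 12 lower of 32. AKR1C1, an aldo-keto reductase, stood at 1.03, 1.23 and 1.4 FPKM in control and 9.87, 11.7 and 9.93 in shIDH1, and AKR1C3 rose 4.02-fold. These copies are closely alike, so their reads may be shared. ALDH1A1, a retinal dehydrogenase, rose 5.75-fold, while CBR3, a carbonyl reductase, fell 3.72-fold and GSTT2B, a glutathione transferase with a near-identical copy, 3.37-fold. GSTP1 was uneven between controls, at 0.495, 6.69 and 8.12 FPKM, and was not called against control replicate 1 alone (adjusted p = 0.949). Metallothioneins, small proteins that bind zinc and copper, all fell: 4 of 4 tested, with a median of -2.75. MT2A stood at 87.8, 139 and 108 FPKM in control and 13.1, 11.5 and 14.2 in shIDH1 and MT1E at 56.3, 85.6 and 68.8 and 7.24, 8.77 and 8.28. Their sequences are similar enough for reads to be shared.

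The deposited annotation columns place the tested genes in pathways of KEGG (6077 genes), Gene Ontology (15056) and Reactome (8808). Of the tested genes with a KEGG term 28.5% were called higher and 34.8% lower, of those with a Gene Ontology term 28.3% and 32.9%, and of those with a Reactome term 27.9% and 36%. Among 271 KEGG terms with 15 to 150 tested genes the lowest medians were those of DNA replication (-1.88; 33 of 36 genes lower), mismatch repair (-1.53; 19 of 23) and base excision repair (-1.31; 26 of 33). Among KEGG terms chosen by name, of any size, the Spliceosome term had 107 of 131 genes lower, RNA transport 95 of 148 and Ribosome biogenesis in eukaryotes 49 of 74. Glutathione metabolism had 20 of 46 lower and 14 higher. The highest KEGG medians included ECM-receptor interaction (0.83; 43 of 71 higher), Complement and coagulation cascades (0.78; 38 of 62) and Glycosaminoglycan degradation (0.75; 11 of 17). The Lysosome term had 63 of 121 higher, ABC transporters 18 of 37 and Focal adhesion 81 of 183. Among signalling terms chosen by name, MAPK signaling had 98 higher and 82 lower of 260, Wnt signaling 42 and 42 of 137 and TGF-beta signaling 29 and 27 of 81. PI3K-Akt signaling had 104 higher and 74 lower of 283, Jak-STAT signaling 39 and 23 of 114, FoxO signaling 46 and 32 of 122, Hedgehog signaling 9 and 17 of 45 and Cytokine-cytokine receptor interaction 67 and 22 of 180.

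The other annotation sources were ranked in the same way. In Gene Ontology the lowest medians included mitotic sister chromatid segregation (-2.21; 28 of 34 lower) and DNA replication initiation (-1.83; 28 of 33), and the highest included extracellular matrix binding (0.97; 16 of 24 higher). In Reactome the ends were Polo like kinase mediated events (-2.30; 13 of 16 lower) and Crosslinking of collagen fibrils (1.20; 12 of 17 higher), with Integrin cell surface interactions at 0.84 (43 of 77 higher). Terms share genes and were ranked on this contrast, so their order is a description.

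Promoter letters were counted over genes with a RefSeq promoter in the table used (250 bases before to 50 after the start; 13299 of 21492 tested genes), on both strands. An E2F site (TTTGGCGC, TTTCCCGC, TTTCGCGC or TTTGCCGC) stood in 8.47% of promoters of genes called and at least 2-fold lower, 4.88% of all tested genes and 2.38% of those called and at least 2-fold higher. The NF-Y box CCAAT stood in 44.3%, 36% and 36% in the same order, and TTTGAA in 13.8%, 10.5% and 12.5%. Among higher genes the AP-1 site TGACTCA stood in 5.63%, against 3.57% of all tested and 3.11% of lower ones, and the C/EBP-ATF composite site TGATGCAA in 1.11%, 0.489% and 0.282%. The TEAD site CATTCC, printed above for ANKRD1 and CCN2, stood in 12.7% of higher, 11.3% of all tested and 10.9% of lower genes. The antioxidant core TGACNNNGC stood in 16.3%, 14.9% and 14%. Over all 27305 promoters of the table, tested or not, the shares were 3.33% for E2F, 35.7% for CCAAT, 15.4% for TTTGAA, 4.92% for AP-1, 0.923% for C/EBP-ATF, 13.6% for the antioxidant core and 14% for TEAD. A match is a run of letters and not a bound site.

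**Figure D5:**
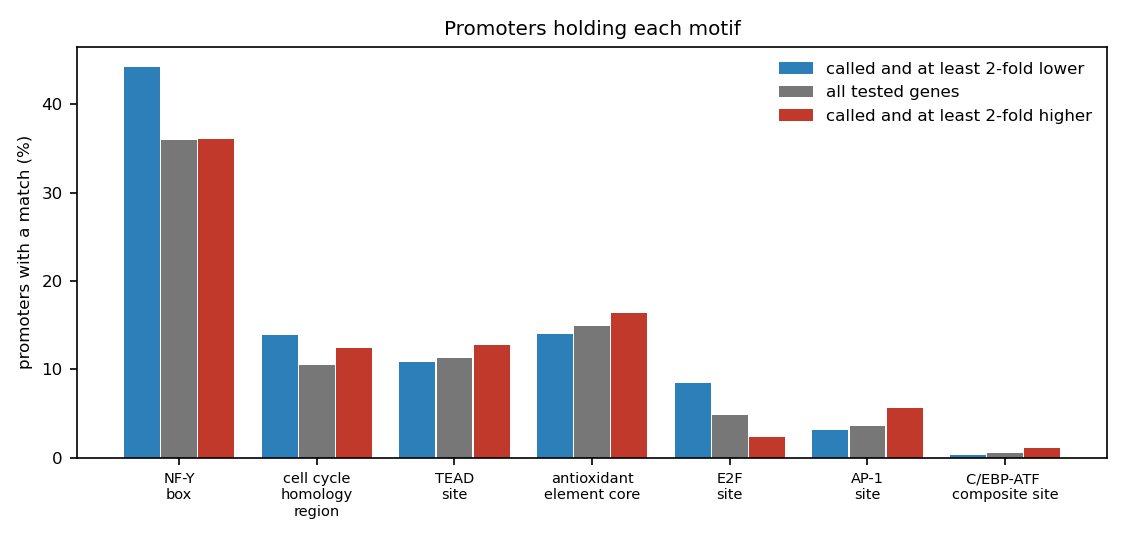
Share of promoters (250 bases before to 50 after the start) that hold each motif on either strand, for genes called and at least 2-fold lower (blue), all tested genes (grey) and genes called and at least 2-fold higher (red). The bar for E2F sites falls from 8.47% to 2.38% across the sets, and that for AP-1 sites rises from 3.11% to 5.63%.

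The shJOSD2 libraries show which of these changes differed between hairpins, tested directly as shIDH1 against shJOSD2, a test in which the controls take no part in the difference. It called 44.8% of tested genes, 20.8% higher and 24% lower in shIDH1. SPARC stood at 1.31, 1.61 and 1.46 FPKM in shJOSD2 and ITGA10 at 0.533, 0.546 and 0.538, so both were higher in shIDH1, by 4.26 ± 0.14 and 4.53 ± 0.13 on the log2 scale (SE). ANKRD1 at 124, 127 and 132 and GABARAPL1 at 6.81, 7.66 and 7.6 were also below shIDH1. MMP7 stood at 9.25, 7.42 and 8.09 FPKM in shJOSD2, below both other groups. CALD1 at 32.1, 33.3 and 31.4 and AXL at 92.7, 89.97 and 94.5 were not lower than control there, and both were lower in shIDH1 than in shJOSD2, with log2 differences of -2.36 ± 0.07 and -1.08 ± 0.05 (SE). Of the nuclear pore genes 21 of 31 were lower in shIDH1 than in shJOSD2 and 2 higher, and of the spliceosome genes 22 of 33 and 2. Of the matrix genes 23 of 36 were higher in shIDH1 and 8 lower. The fall of TUBA1B, with 197, 192 and 208 FPKM in shJOSD2, and the rise of ACTA2, with 28.6, 28.4 and 27.5, gave differences of -0.20 ± 0.09 and 0.10 ± 0.07 between the hairpins, neither called.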

How the data were processed

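Poly(A) RNA of 9 libraries was sequenced, per the labels' protocols. StringTie 1.3.4d, UMI-tools, HISAT2 2.0.4 and cutadapt 1.9 are named, with build GRCh38, per the submitters' processing notes. Which step each tool made, the annotation release and the strand setting of counting were not given in the sources used here. The counts deposited by the authors are raw whole numbers, per the file headers, and the FPKM values deposited by the authors were used for levels only. Of counts from 1 to 20, 30.2% were multiples of 4, and 1 fragment may add several counts. Some counts are multiples of 4 without such a step, and the excess over that share was not computed. Counts divided by 4 were tried as an alternative.

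All 9 libraries entered 1 edgeR 4.0.16 quasi-likelihood fit (R 4.3.3; filterByExpr, TMM), with Benjamini-Hochberg adjustment over 21492 genes at 0.05, glmTreat for fold limits, and standard errors from the F statistic. Tested on simulated data for shIDH1 against control (20911 genes), it recovered 17.1% of 1.5-fold, 57.4% of 2-fold and 87.5% of 4-fold changes, so an uncalled gene may still differ. The simulation changed far fewer genes than were called here and used a fixed spread, so these rates need not hold for the real libraries. Alternatives were DESeq2 1.42.0, limma 3.58.1 on log2 FPKM, other filters, scalings, a replicate block and libraries left out. If 1 fragment adds 4 counts, replicates differed beyond sampling noise (chi-square of counts divided by 4, per degree of freedom, 3.59 to 10.0). Repeat preparations of 1 culture could also do so.

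Members, lists (888 symbols in 30 lists, 835 tested) and terms were chosen with earlier results of these data known. Named genes are IDH1, JOSD2, IDH2, YAP1 and WWTR1; the 10 largest rises and falls by fold and by FPKM among well-measured genes; up to 3 called list members per direction of at least 2 FPKM; the 5 most abundant genes with a 95% interval within -0.25 to 0.25; and the most abundant marker of a cell type. A few genes this rule names are not reported here, and genes outside it, COL1A2, COL3A1 and CCND1 and SOX9 included, were picked after their values were seen. Promoters are RefSeq's (GRCh38.p14), matched by symbol. Figures were drawn with matplotlib.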

Additional observations from a re-analysis of the deposited data

How the results depend on the processing

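The count of called genes, 10769, lay between 8476 (control replicate 1 as the only control, assumed to vary like the other groups) and 11178 (DESeq2) over all alternatives, and 7987 of the 8476 were among the 10769. Leaving out 1 library gave 9724 to 10635 called genes, 3829 to 4374 called and at least 2-fold changed (4120), 4000 to 4669 changed beyond 1.5-fold (4517) and 1710 to 2148 beyond 2-fold (1989), and an IDH1 log2 change of -1.86 to -1.74. Limma on log2(FPKM + 1) gave 1491 genes called and at least 2-fold changed, and 1484 with FPKM of at least 1 in 3 libraries, since the pseudocount of 1 shrinks changes of low genes. With control replicate 1 as the only control the log2 changes of APOA1 and DKK1 were reversed, at 0.076 and 0.28 (adjusted p = 0.914 and 0.185) against -3.31 and -0.68. Of 198 genes named in the text, 180 were called in the main analysis, and 172 kept their direction and their side of the threshold under every alternative run. The labels number the replicates 1 to 3 in each group. A fit with the replicate number as a replicate block called 10416 genes. Same-numbered control and shIDH1 libraries did not deviate together over all tested genes (correlations 0.0056, -0.018 and 0.0036). These values show no pairing by number but cannot exclude it, since they rest on 3 libraries per group and include many low genes. Upper-quartile factors moved the list medians by 0.11 and gave 6176 genes higher and 4682 lower. The median of the integrins (0.60) was 1.11 with at least 40 counts in 3 libraries, which tests fewer chains, and that of chemokines and interleukins (0.04) changed sign without control replicate 2 (-0.09), against control replicate 1 alone (-0.04) and with limma voom (-0.00). With limma on FPKM of at least 1 the medians of the mucin list (-0.36) and the Wnt list (-0.14) were 0.25 and 0.02, and that of lipid-handling genes (-0.17) was 0.30 against control replicate 1 alone. Depth limits low genes: 12764 of 21492 tested genes reached a mean of 1 FPKM in a group.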

Other observations

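Gene families picked by symbol after the values were seen follow, against 24.5% higher and 25.6% lower over all tested genes. Mitochondrial ribosomal proteins, which translate the mitochondrial genome, fell in 58 of 78 cases and rose in 0, with a median of -0.44. Those of the cytosolic ribosome were near the shares of all tested genes for falls, 25 lower and 8 higher of 83, with a median of -0.14 that was -0.06 without control replicate 2, and -0.03 with upper-quartile factors or against control replicate 1 alone, where 12 were lower. Of 22 heterogeneous nuclear ribonucleoproteins 19 fell and 0 rose, HNRNPM by 1.55 on the log2 scale, and of 9 genes of the CCT chaperonin, which folds actin and tubulin, 8 fell and 1 rose. Subunits of the vacuolar ATPase, the proton pump of lysosomes, rose in 13 of 25 cases and fell in 4.

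Histone genes went in both directions. Of 42 tested, 18 rose and 5 fell, with a median of 0.73. The variants H2AX and H2AZ1 fell by 3.93 and 3.15 on the log2 scale. H1-2 stood at 4.82, 6.17 and 6.88 FPKM in control and 17.7, 20.2 and 16.6 in shIDH1, H2BC4 at 1.56, 3.12 and 2.35 and 8.81, 11.4 and 13.4, and H4C14 at 1.07, 0.73 and 0.843 and 2.56, 3.18 and 3.22. Replication-dependent histone transcripts normally end without a poly(A) tail and these libraries were selected for poly(A) RNA, so how the level of such transcripts relates to these values was not tested. Histone genes of 1 class are near copies, and reads may be shared.

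The class of transcript also differed. Among 3976 tested long non-coding and antisense genes 678 rose and 310 fell, with a median log2 change of 0.26, against 4298 and 4985 of 15135 protein-coding genes, with a median of -0.04. The non-coding genes were low, with a median level of 0.238 FPKM against 3.63 for protein-coding genes. They were called less often in both directions than all tested genes, of which 24.5% were higher and 25.6% lower. The classes were not recomputed with other scalings, and upper-quartile factors alone moved the median of all genes to 0.12.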
